A study of Mus musculus with 8 samples.

Results

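Hox genes were followed in 2 kidney epithelial cell lines mutant for Pkd1, which encodes polycystin-1 and underlies most polycystic kidney disease. A gene belonged to the set when its Entrez gene ID mapped to the mouse symbol Hoxa, Hoxb, Hoxc or Hoxd followed by a number. This gave 37 of the 18631 genes in the files. The annotation holds 39 such genes, and the other 2 were not analysed here. The set comprises 10 genes of the Hoxa cluster on chromosome 6, 10 of the Hoxb cluster on chromosome 11, 8 of the Hoxc cluster on chromosome 15 and 9 of the Hoxd cluster on chromosome 2.

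Poly(A) RNA was sequenced from Pkd1-/- null cells given THZ1, null cells given DMSO, Pkd1+/- heterozygous cells given THZ1 and heterozygous cells given DMSO, with 2 libraries in each of the 4 groups. THZ1, which binds CDK7 covalently and inhibits it, was used at 50 nM for 6 h, and DMSO is its solvent. CDK7 phosphorylates RNA polymerase II during the start of transcription. All cells grew in a medium with serum, insulin, transferrin, interferon gamma and T3. Each genotype is 1 cell line, so the loss of polycystin-1 and any other difference between the lines cannot be told apart. No label states that replicates came from separate cultures, so each p-value reflects the spread among these libraries alone, and that spread may be technical.

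Hox genes encode homeobox transcription factors that tell cells where they lie along the body axis. They sit in 4 clusters that arose by duplication, and genes with the same number in different clusters are paralogs. Genes with low numbers lie at the 3' end of a cluster and act furthest towards the head, and genes with high numbers lie at the 5' end and act furthest towards the tail. Adult cells often keep the Hox pattern of the place where they arose. In the kidney, the genes of group 11 act together in the mesenchyme from which nephrons form, and the promoter of Hoxb7 is widely used to drive transgenes in the ureteric bud and the ducts it gives rise to.

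Levels are given as FPKM, fragments scaled by transcript length and by library, as the authors deposited them. Differences are on the scale log2(FPKM + 1), which understates the change of low genes, and carry limma's standard error (SE). A gene was called when its p-value, adjusted over all 10731 genes with a mean of at least 1 FPKM, was below 0.05. Depth was estimated at 17.3 to 18.3 M fragments per library from the steps between low values. Replicates correlated across genes with Pearson's r of 0.9973 to 0.9983, and the median absolute replicate difference of the tested Hox genes was 0.06 to 0.13 on the log2 scale. Pkd1 stood at 1.22 and 1.21 FPKM in null THZ1, 1.69 and 1.32 in null DMSO, 3.71 and 4.2 in heterozygous THZ1 and 4.58 and 5.3 in heterozygous DMSO libraries, so it was lower in every null library but not at 0.

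The epithelial label was checked against 8 markers. The keratin genes Krt7, Krt8, Krt18 and Krt19 and the claudin gene Cldn4 were at 11.55 FPKM or more in every library, whereas Epcam was at most 0.24 and the E-cadherin gene Cdh1 at most 0.42 FPKM. Of 6 collecting duct markers, Tfcp2l1 was at 11.93 to 16.07 and Gata3 at 0.72 to 3.25 FPKM, and the other 4, Aqp2 and Foxi1 among them, were at most 0.19 FPKM. The summed level of 6 proximal tubule markers, nearly all of it Aqp1, was 105 to 111 FPKM in null THZ1, 63.8 to 71.8 in null DMSO, 223 to 234 in heterozygous THZ1 and 186 to 197 in heterozygous DMSO libraries. Lrp2, another of the 6, ran the other way, at 4.45 to 5.14 FPKM in the null and 0.45 to 0.51 in the heterozygous libraries. Umod, a marker of the thick ascending limb, was listed at 0 in the 4 null libraries and at 1.62 to 2.25 FPKM in the 4 heterozygous ones. Of 8 fibroblast markers, Col1a1 and Postn had a mean of at least 1 FPKM, and Pdgfra and Lum were at most 0.14 FPKM. The summed level of the 8 was 39.9 to 43.0 FPKM in null THZ1, 33.7 in null DMSO, 15.3 to 15.4 in heterozygous THZ1 and 15.5 to 16.6 in heterozygous DMSO libraries. The part of these marker shifts in the Hox differences between the lines was not tested. In bulk RNA, fewer cells of a kind and less RNA per cell cannot be told apart.

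A block of expressed Hox genes ran from group 2 to group 10 in both lines, and groups 11 and 12 were close to 0 in all 4 groups of libraries. Of the 37 genes, 29 had a mean of at least 1 FPKM in each of the 4 groups, and these are the 29 that were tested. They comprised 9 of 10 Hoxa genes, 9 of 10 Hoxb genes, 6 of 8 Hoxc genes and 5 of 9 Hoxd genes. The other 8 were Hoxb1 and Hoxd1 at the 3' end, and Hoxa11, Hoxc11, Hoxd11, Hoxd12, Hoxc13 and Hoxd13 at the 5' end. Among paralogs, Hoxb13 was thus expressed where the other 2 genes of group 13 in the files were not. No gene was at 0 in all 8 libraries.

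**Figure D1:**
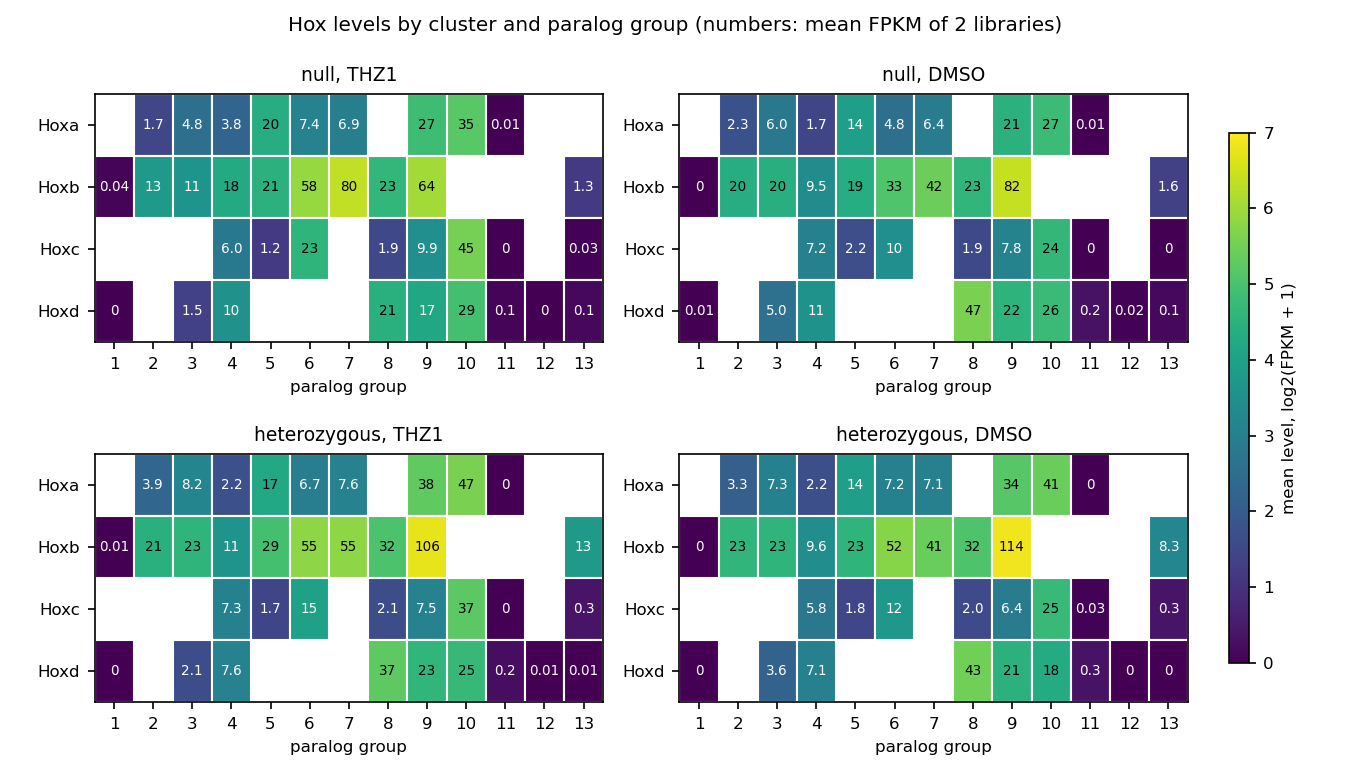
Mean level of the Hox genes (2 libraries) in the 4 groups of line and drug, by cluster (rows) and paralog group (columns), coloured by log2(FPKM + 1) with the mean FPKM printed. Blank squares have no gene or none analysed here. The 27 other genes above 1 FPKM that are drawn lie in groups 2 to 10, and Hoxb13 reads 1.3 and 1.6 in null cells and 13 and 8.3 in heterozygous cells.

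The 8 low genes ranged from 0 to 0.36 FPKM, and 1 fragment on a transcript of 2000 bp corresponded to about 0.027 to 0.029 FPKM. The summed level of the 3 genes of group 11, the group known for its role in the embryonic kidney, was 0.05 and 0.07 FPKM in null THZ1, 0.29 and 0.21 in null DMSO, 0.27 and 0.1 in heterozygous THZ1 and 0.28 and 0.31 in heterozygous DMSO libraries. Most of it was Hoxd11, which was above 0 in all 8 libraries and ranged from 0.05 to 0.29 FPKM. The annotated span of Hoxd11 overlaps that of Hoxd10 by 2744 bp, although their coding transcripts share 0 bp of exon. How fragments in overlapping genes were assigned is not given in the sources used here. The part of Hoxd10 in the Hoxd11 values was not tested. Hoxc13 had 0 and 0.05 FPKM in null THZ1 and 0 in both null DMSO libraries, against 0.22 and 0.36 in heterozygous THZ1 and 0.27 and 0.29 in heterozygous DMSO libraries. Hoxd13, which shapes digits and the genital tubercle, ran the other way, at 0.07 and 0.14 FPKM in null THZ1 and 0.11 and 0.09 in null DMSO, against 0 and 0.02 in heterozygous THZ1 and 0 in both heterozygous DMSO libraries. These differences were below the filter and were not tested. Null DMSO replicate 1 and null THZ1 replicate 2 held 3378 and 3129 genes between 0.01 and 0.2 FPKM, against 2230 to 2586 in the other libraries, and the part of this in such low values was not tested.

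The summed level of all Hox genes was 571.53 and 557.32 FPKM in null THZ1, 505.28 and 497.21 in null DMSO, 636.04 and 654.75 in heterozygous THZ1 and 572.65 and 614.5 in heterozygous DMSO libraries. The Hoxb cluster made up 51.4% of it in null THZ1, 49.9% in null DMSO, 53.3% in heterozygous THZ1 and 54.8% in heterozygous DMSO cells. Hoxb9 had the highest level of all Hox genes in the DMSO cells of both lines. The share of the anterior genes, groups 1 to 3, was 5.97% in null THZ1, 11.4% in null DMSO, 9.58% in heterozygous THZ1 and 10.8% in heterozygous DMSO cells. The share of the central genes, groups 4 to 8, was 53.3% in null THZ1, 46.4% in null DMSO, 44.4% in heterozygous THZ1 and 43.7% in heterozygous DMSO cells.

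**Figure D2:**
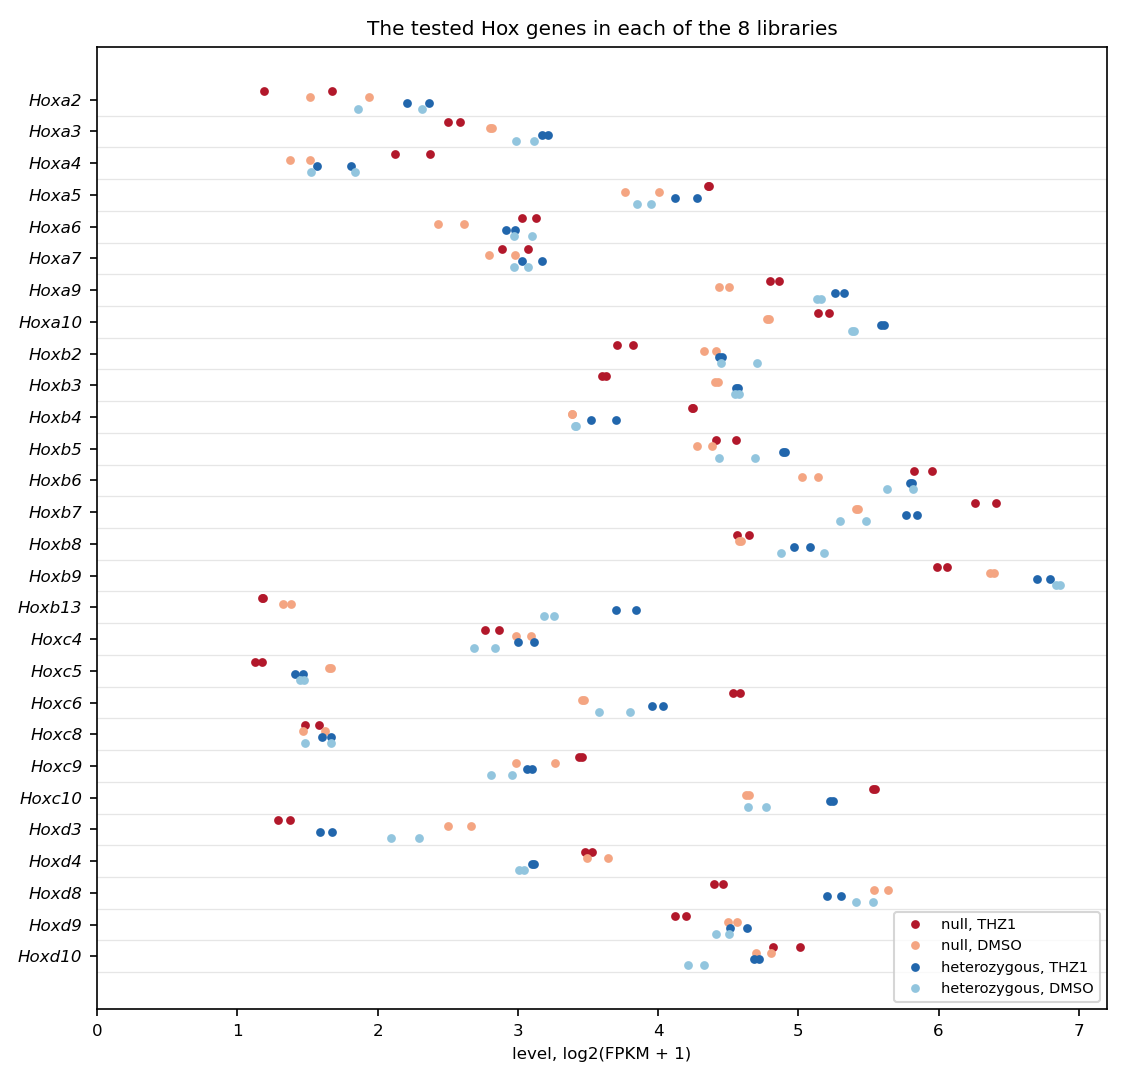
Level of 28 of the 29 tested Hox genes in each of the 8 libraries, as log2(FPKM + 1), 1 point per library, with null THZ1, null DMSO, heterozygous THZ1 and heterozygous DMSO libraries in 4 colours. Replicates lie close together for most genes; Hoxb13 stands far lower in the 4 null libraries, and Hoxd3, Hoxd8 and Hoxb3 are lowest in null THZ1 libraries.

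Under DMSO, null cells differed from heterozygous cells by cluster. In null cells 5 of 9 tested Hoxa genes and 7 of 9 Hoxb genes were called lower, and 0 of either cluster higher. Of 6 Hoxc genes 2 were higher and 1 lower, and of 5 Hoxd genes 3 were higher and 0 lower. In all, 18 of 29 Hox genes (62.1%) were called, 5 higher and 13 lower, against 70% of all tested genes, of which 29% were called higher and 41% lower. The median difference was -0.15 over the Hox genes and -0.07 over all tested genes. The split moved with the scaling of the libraries, to 7 higher and 9 lower with median-of-ratios scaling, 9 and 7 with upper-quartile scaling and 7 and 11 with total FPKM scaling. Under these 3 scalings 3 to 5 Hoxa genes and 4 to 5 Hoxb genes were lower, 0 Hoxd genes were lower, and 1 Hoxb gene, Hoxb7, was higher with upper-quartile scaling. Without null DMSO replicate 2 the count was 11.

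The largest difference was in Hoxb13 (chr11:96194316-96196610, + strand), the most 5' gene of its cluster, known for its role in the prostate and the tail end of the body. Hoxb13 had 1.27 and 1.26 FPKM in null THZ1, 1.5 and 1.61 in null DMSO, 13.32 and 11.97 in heterozygous THZ1 and 8.1 and 8.54 in heterozygous DMSO libraries. Every null library was below every heterozygous one, and the mean under DMSO was 0.187 times that of heterozygous cells. The log2 difference was -1.87 ± 0.08 (SE, limma adjusted p = 5.88e-10). Hoxb13 lies apart from the rest of the Hoxb cluster, and its nearest tested neighbour Hoxb9 differed far less.

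Among the other genes of groups 9 and 10, which pattern the lower trunk and the lumbar region, the Hoxa and Hoxb members were lower in null cells. Hoxa9 (chr6:52223097-52227370, - strand), also known from blood cell development and leukaemia, had 28.14 and 26.85 FPKM in null THZ1, 20.66 and 21.67 in null DMSO, 37.31 and 39.07 in heterozygous THZ1 and 34.07 and 34.85 in heterozygous DMSO libraries. Hoxa10 (chr6:52231197-52240854, - strand), which is needed for the uterus, had 36.2 and 34.19 FPKM in null THZ1, 26.67 and 26.43 in null DMSO, 47.81 and 47.17 in heterozygous THZ1 and 40.78 and 41.05 in heterozygous DMSO libraries. Hoxb9 (chr11:96271330-96276595, + strand), which takes part in shaping the ribs, had 62.33 and 65.81 FPKM in null THZ1, 83.32 and 81.44 in null DMSO, 102.86 and 110.06 in heterozygous THZ1 and 113.49 and 115.49 in heterozygous DMSO libraries. For these 3 genes all null libraries lay below all heterozygous ones. Under DMSO the log2 differences were -0.68 ± 0.05 for Hoxa9 (SE, limma adjusted p = 8.44e-08), -0.61 ± 0.05 for Hoxa10 (adjusted p = 9.81e-08) and -0.47 ± 0.05 for Hoxb9 (adjusted p = 1.10e-06).

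Their Hoxc and Hoxd paralogs did not follow. Hoxd10, which takes part in patterning lumbar motor neurons and the hindlimb, had 27.23 and 31.26 FPKM in null THZ1, 26.97 and 24.91 in null DMSO, 25.28 and 24.68 in heterozygous THZ1 and 17.55 and 19.11 in heterozygous DMSO libraries. Hoxc9, which marks thoracic motor neurons, had 9.97 and 9.83 FPKM in null THZ1, 6.94 and 8.61 in null DMSO, 7.38 and 7.59 in heterozygous THZ1 and 6.02 and 6.79 in heterozygous DMSO libraries. In both genes the null DMSO libraries lay above the heterozygous DMSO ones, with log2 differences of 0.48 ± 0.07 for Hoxd10 (SE, limma adjusted p = 3.81e-05) and 0.24 ± 0.09 for Hoxc9 (adjusted p = 0.0287). The Hoxc9 call was lost without null DMSO replicate 2, at 0.10, without heterozygous DMSO replicate 1, at 0.17, and with no filter on low values. Hoxc10 and Hoxd9 were not called.

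In the central part of the clusters, Hoxa6, Hoxb6 and Hoxb8 were lower and Hoxd4 higher in null DMSO cells. Hoxa6 had 7.15 and 7.74 FPKM in null THZ1, 4.39 and 5.14 in null DMSO, 6.87 and 6.56 in heterozygous THZ1 and 6.86 and 7.58 in heterozygous DMSO libraries. Hoxb6 had 60.83 and 55.67 FPKM in null THZ1, 31.65 and 34.26 in null DMSO, 54.68 and 55.23 in heterozygous THZ1 and 48.55 and 55.28 in heterozygous DMSO libraries. In both of these group 6 genes, which pattern the thoracic region, the null DMSO libraries were below the other 6, with log2 differences of -0.51 ± 0.08 for Hoxa6 (SE, limma adjusted p = 0.000114) and -0.64 ± 0.06 for Hoxb6 (adjusted p = 1.55e-06). Hoxb8, whose loss in mice causes excessive grooming, had 24.1 and 22.61 FPKM in null THZ1, 23.06 and 22.91 in null DMSO, 30.27 and 32.89 in heterozygous THZ1 and 28.32 and 35.27 in heterozygous DMSO libraries. Hoxd4, which helps to shape the cervical vertebrae, had 10.14 and 10.54 FPKM in null THZ1, 11.47 and 10.23 in null DMSO, 7.67 and 7.56 in heterozygous THZ1 and 7.04 and 7.24 in heterozygous DMSO libraries. Null and heterozygous libraries did not overlap in either gene, and the DMSO differences were -0.44 ± 0.08 for Hoxb8 (SE, limma adjusted p = 0.000328) and 0.54 ± 0.07 for Hoxd4 (adjusted p = 1.45e-05).

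Most smaller differences under DMSO were lost under some alternatives. Hoxb5, which acts in the enteric nervous system and the shoulder, had 22.47 and 20.25 FPKM in null THZ1, 19.91 and 18.35 in null DMSO, 28.94 and 28.71 in heterozygous THZ1 and 20.58 and 24.8 in heterozygous DMSO libraries. Its difference of -0.23 ± 0.08 (SE, limma adjusted p = 0.0193) was -0.08 with upper-quartile scaling and -0.10 without heterozygous DMSO replicate 2, and was called under neither. Hoxc4 had 6.3 and 5.79 FPKM in null THZ1, 6.93 and 7.52 in null DMSO, 7.01 and 7.66 in heterozygous THZ1 and 5.45 and 6.14 in heterozygous DMSO libraries. Under DMSO it was higher in null cells by 0.28 ± 0.08 (SE, limma adjusted p = 0.00829), and the call was lost without heterozygous DMSO replicate 1, at 0.20, and without null DMSO replicate 2, at 0.22. Hoxa3, Hoxb2, Hoxb3 and Hoxc6 were also called lower, by -0.24, -0.20, -0.15 and -0.23. Hoxd3 was called higher, by 0.39 ± 0.10 (limma adjusted p = 0.00298), a call that held under all 15 alternatives. With upper-quartile scaling Hoxa3, Hoxb2, Hoxb3 and Hoxc6 were at -0.11, -0.05, -3.94e-05 and -0.08 and none of them was called.

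**Figure D3:**
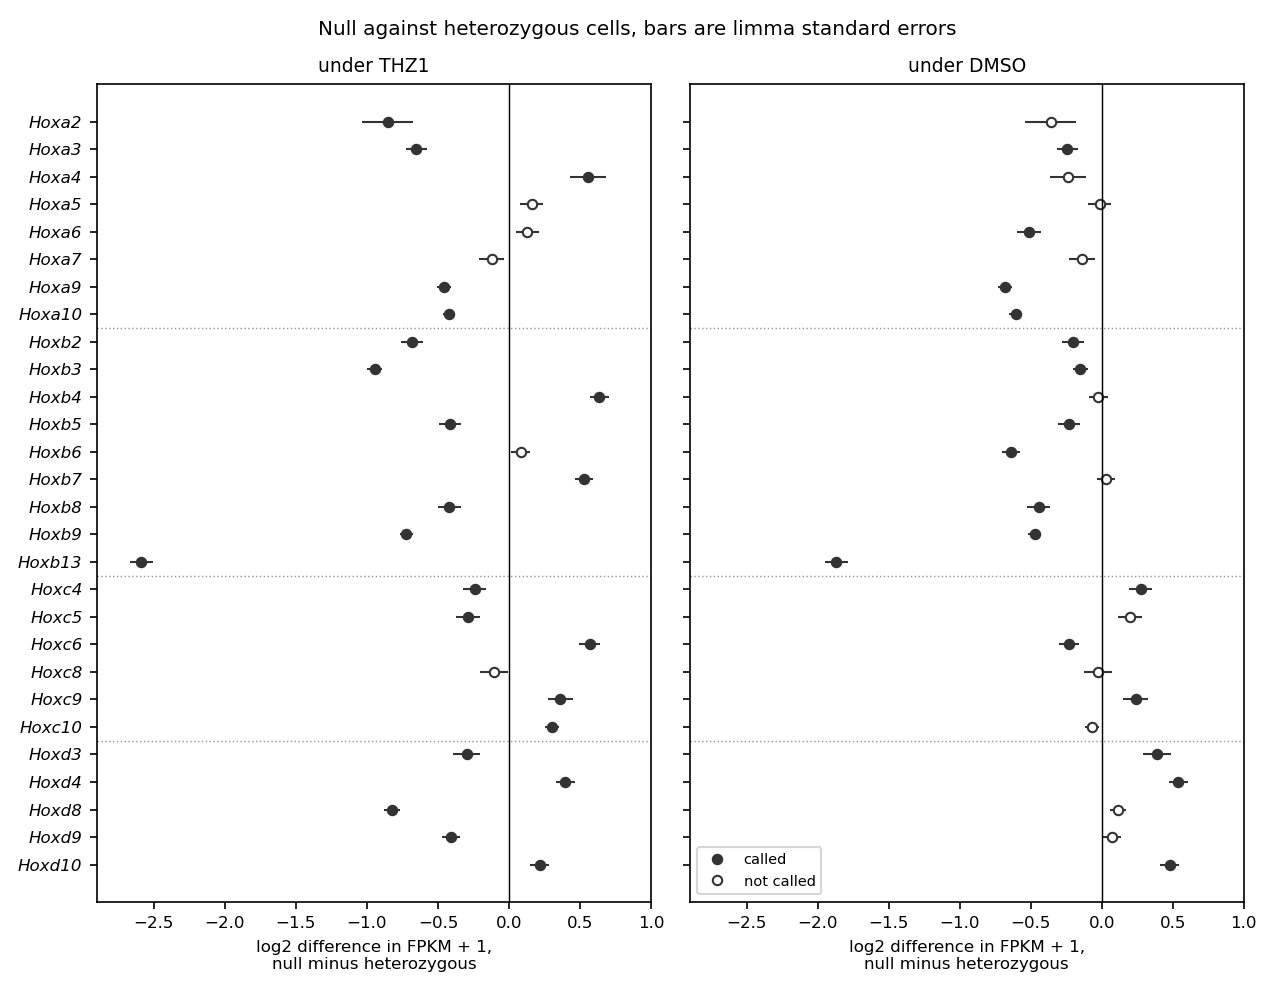
Log2 difference in FPKM + 1, null minus heterozygous cells, for 28 of the 29 tested Hox genes, under THZ1 (left) and under DMSO (right). Points are limma estimates, bars are ± 1 SE, filled points were called at an adjusted p below 0.05, and dotted lines part the clusters. Hoxb13 is at -2.59 under THZ1 and -1.87 under DMSO, and the 5 Hoxd genes lie above 0 under DMSO.

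Pooled over the clusters, the THZ1 response in null cells was downward in groups 2 and 3 and mixed in the higher groups. Of the 5 tested genes of groups 2 and 3, 4 were lower under THZ1 and 0 higher. Of the 15 of groups 4 to 8, 7 were higher and 3 lower, and of the 8 of groups 9 to 13, 5 were higher and 2 lower. The clusters differed, and of the 5 Hoxd genes 1 was higher, Hoxd10, and 3 were lower, Hoxd3, Hoxd8 and Hoxd9. In all, 22 of 29 Hox genes (75.9%) were called, 12 higher and 10 lower, against 75.7% of all tested genes, of which 24.6% were called higher and 51.1% lower. The median was 0.02 over the Hox genes and -0.17 over all tested genes, so that each Hox gene stood 0.17 higher relative to the median gene than its log2 difference states. With median-of-ratios scaling, which brought that median to 0.04, the split was 16 higher and 7 lower. Of these 5 anterior genes 3 to 4 were lower and 0 higher under the 3 other scalings. Groups 4 to 8 then had 7 to 11 higher and 2 to 3 lower. Groups 9 to 13 had 4 to 5 higher and 1 to 3 lower, with 4 and 3 under total FPKM scaling.

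The deepest falls were in the Hoxd cluster. Hoxd3 (chr2:74711993-74748271, + strand), whose loss in mice alters the atlas and axis vertebrae, had 1.6 and 1.45 FPKM in null THZ1, 4.67 and 5.34 in null DMSO, 2.2 and 2.01 in heterozygous THZ1 and 3.27 and 3.91 in heterozygous DMSO libraries. Hoxd8 (chr2:74704615-74707933, + strand) had 20.09 and 21.06 FPKM in null THZ1, 48.8 and 45.53 in null DMSO, 38.57 and 35.91 in heterozygous THZ1 and 45.3 and 41.6 in heterozygous DMSO libraries. In both genes the null THZ1 libraries were the lowest of the 8 and THZ1 libraries lay below DMSO libraries in each line. In null cells Hoxd3 fell by 1.25 ± 0.10 on the log2 scale (SE, limma adjusted p = 1.25e-07), and Hoxd8 fell by 1.16 ± 0.06 (adjusted p = 3.17e-09), to 0.305 and 0.436 times their DMSO means. Hoxd4, whose annotated span lies inside that of Hoxd3, was not called, at -0.06 ± 0.07.

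The upstream 250 bases of these 3 genes and of Hoxb4, which rose under THZ1, are shown because genes of the same cluster, and genes nested in one another, responded differently. They are RefSeq promoter sequences of GRCm38.p6, 5' to 3' on the strand of the gene. They cover chr2:74711743-74711992, + strand, for Hoxd3, chr2:74721728-74721977, + strand, for Hoxd4, chr2:74704365-74704614, + strand, for Hoxd8 and chr11:96318017-96318266, + strand, for Hoxb4. Each window ends at the base before the annotated start of its gene. Which start was used in these cells was not tested. Capitals mark CCAAT or its reverse complement ATTGG, and TATAAA or its reverse complement TTTATA.
Hoxd3: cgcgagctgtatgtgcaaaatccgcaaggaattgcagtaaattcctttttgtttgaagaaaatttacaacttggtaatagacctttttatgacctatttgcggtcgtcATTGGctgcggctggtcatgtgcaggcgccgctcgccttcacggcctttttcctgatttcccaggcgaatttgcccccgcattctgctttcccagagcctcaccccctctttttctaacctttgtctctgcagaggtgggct
Hoxd4: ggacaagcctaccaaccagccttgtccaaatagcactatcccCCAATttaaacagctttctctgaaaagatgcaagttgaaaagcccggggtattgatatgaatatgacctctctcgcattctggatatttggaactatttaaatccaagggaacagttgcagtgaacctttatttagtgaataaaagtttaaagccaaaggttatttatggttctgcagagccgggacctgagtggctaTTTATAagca
Hoxd8: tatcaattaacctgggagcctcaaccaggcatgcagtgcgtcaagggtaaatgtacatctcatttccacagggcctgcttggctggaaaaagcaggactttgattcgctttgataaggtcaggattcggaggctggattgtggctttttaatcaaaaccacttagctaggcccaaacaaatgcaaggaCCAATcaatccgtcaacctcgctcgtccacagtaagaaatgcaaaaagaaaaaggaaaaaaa
Hoxb4: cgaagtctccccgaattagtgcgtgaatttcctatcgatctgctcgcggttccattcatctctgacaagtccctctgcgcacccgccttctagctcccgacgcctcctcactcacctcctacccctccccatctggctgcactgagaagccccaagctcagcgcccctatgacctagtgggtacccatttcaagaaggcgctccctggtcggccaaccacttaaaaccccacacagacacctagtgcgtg
The CCAAT box is bound by the factor NF-Y, and TATAAA is the TATA box. Hoxd3, Hoxd4 and Hoxd8 each hold 1 CCAAT match, Hoxd4 also holds 1 TATAAA match, and the Hoxb4 window holds neither.

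Of the 29 tested genes, 15 had an entry in the promoter table, with 16 promoters. CCAAT was in 9 of the 16 (56.25%) and in 33.8% of all 32851 promoters. TATAAA was in 3 (18.75%) and in 12.4% of all, and the GC box GGGCGG in 6 (37.5%) and in 32.7% of all. TGATTNAT, a core that Hox proteins bind together with Pbx, was in 1 (6.25%), that of Hoxa2, and in 2.82% of all. Both strands were searched in the 250 bases before the start, and motifs were free to overlap. These are matches of letters, with no data on binding in these cells. Among the genes with CCAAT, Hoxa5, Hoxa6, Hoxa10 and Hoxd10 were called higher under THZ1 in null cells, and Hoxd3 and Hoxd8 lower. Among those without it, Hoxa9 and Hoxb4 were called higher, and Hoxa3, Hoxc4 and Hoxd9 lower. The part of the motif in these responses was not tested.

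Hoxa3, Hoxb2 and Hoxb3 were lower under THZ1 in null cells while heterozygous cells showed no call. Hoxb3 (chr11:96307101-96347930, + strand), a gene of the hindbrain and pharyngeal region, had 11.39 and 11.15 FPKM in null THZ1, 20.51 and 20.18 in null DMSO, 22.55 and 22.73 in heterozygous THZ1 and 22.91 and 22.44 in heterozygous DMSO libraries. Hoxb2, a gene of hindbrain patterning, had 13.11 and 12.08 FPKM in null THZ1, 20.34 and 19.08 in null DMSO, 20.66 and 20.9 in heterozygous THZ1 and 20.8 and 25.06 in heterozygous DMSO libraries. In both genes the null THZ1 libraries lay below the other 6, and the log2 differences in null cells were -0.80 ± 0.05 for Hoxb3 (SE, limma adjusted p = 2.12e-08) and -0.61 ± 0.08 for Hoxb2 (adjusted p = 1.05e-05). Hoxa3 (chr6:52169059-52213067, - strand), which the thymus and parathyroid need, had 5.0 and 4.65 FPKM in null THZ1, 5.97 and 6.04 in null DMSO, 8.3 and 8.03 in heterozygous THZ1 and 6.92 and 7.68 in heterozygous DMSO libraries. It fell by 0.27 ± 0.07 in null cells (SE, limma adjusted p = 0.00516), and was at -0.06 with median-of-ratios and -0.16 with upper-quartile scaling, where it was not called. Hoxa2, which sets the identity of the second pharyngeal arch, was not called, and its replicates in null cells differed widely.

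The rise under THZ1 in null cells was largest in Hoxc6 (chr15:102998226-103011882, + strand), a gene of the thoracic region. Hoxc6 had 23.0 and 22.2 FPKM in null THZ1, 10.07 and 9.97 in null DMSO, 14.5 and 15.38 in heterozygous THZ1 and 10.97 and 12.92 in heterozygous DMSO libraries. Hoxb7 (chr11:96285604-96290163, + strand), the gene of the ureteric bud transgenes, had 83.89 and 75.6 FPKM in null THZ1, 41.55 and 42.04 in null DMSO, 53.47 and 56.38 in heterozygous THZ1 and 38.31 and 43.68 in heterozygous DMSO libraries. Hoxc10 (chr15:102966796-102971898, + strand), which acts with the other genes of its group in lumbar patterning, had 45.69 and 45.28 FPKM in null THZ1, 23.7 and 24.09 in null DMSO, 36.38 and 36.9 in heterozygous THZ1 and 24.0 and 26.27 in heterozygous DMSO libraries. In all 3 genes THZ1 libraries lay above DMSO libraries in both lines, and null THZ1 libraries above all others. In null cells Hoxc6 rose by 1.10 ± 0.07 (SE, limma adjusted p = 2.71e-08), Hoxb7 by 0.91 ± 0.06 (adjusted p = 4.95e-08) and Hoxc10 by 0.90 ± 0.05 (adjusted p = 7.97e-09), to 2.26, 1.91 and 1.90 times their DMSO means.

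Of the 7 tested genes of groups 4 and 5, Hoxb4, Hoxa4 and Hoxa5 rose in null cells and Hoxc4 and Hoxc5 fell. Hoxb5 and Hoxd4 were not called without scaling. Hoxb4 (chr11:96318267-96321638, + strand), which expands blood stem cells when overexpressed, had 17.96 and 18.0 FPKM in null THZ1, 9.47 and 9.44 in null DMSO, 10.49 and 11.99 in heterozygous THZ1 and 9.6 and 9.66 in heterozygous DMSO libraries. Hoxa4 (chr6:52189682-52191703, - strand) had 4.19 and 3.35 FPKM in null THZ1, 1.87 and 1.59 in null DMSO, 1.97 and 2.51 in heterozygous THZ1 and 1.88 and 2.57 in heterozygous DMSO libraries. Hoxa5, which the lung and trachea need, had 19.56 and 19.49 FPKM in null THZ1, 15.1 and 12.59 in null DMSO, 16.42 and 18.4 in heterozygous THZ1 and 13.4 and 14.47 in heterozygous DMSO libraries. The null THZ1 libraries were the highest of the 8 for each, with log2 differences of 0.86 ± 0.07 for Hoxb4 (SE, limma adjusted p = 1.26e-07), 0.80 ± 0.13 for Hoxa4 (adjusted p = 7.69e-05) and 0.47 ± 0.08 for Hoxa5 (adjusted p = 0.000143). Hoxb6 and Hoxa6, the 2 genes of group 6 that had been low in null DMSO cells, rose by 0.80 ± 0.06 and 0.55 ± 0.08 (SE, limma adjusted p = 1.65e-07 and 5.04e-05). Hoxa9, Hoxa10 and Hoxc9 rose by 0.36, 0.39 and 0.32, and Hoxd10 by 0.16 ± 0.07 (limma adjusted p = 0.0433). The Hoxd10 call was lost under 7 of the 15 alternatives, among them total FPKM scaling at 0.08 and leaving out null THZ1 replicate 2 at 0.07, and the Hoxc9 call without null DMSO replicate 1, at 0.18.

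Falls outside the anterior groups were in Hoxc4, Hoxc5, Hoxd8, Hoxb9 and Hoxd9. Hoxc5 had 1.26 and 1.18 FPKM in null THZ1, 2.15 and 2.17 in null DMSO, 1.66 and 1.76 in heterozygous THZ1 and 1.78 and 1.72 in heterozygous DMSO libraries. Hoxd9, a gene of the trunk and limb, had 17.4 and 16.41 FPKM in null THZ1, 21.56 and 22.68 in null DMSO, 21.81 and 23.76 in heterozygous THZ1 and 20.27 and 21.71 in heterozygous DMSO libraries. The null THZ1 libraries were the lowest for both, and the log2 differences in null cells were -0.51 ± 0.09 for Hoxc5 (SE, limma adjusted p = 0.000132) and -0.37 ± 0.06 for Hoxd9 (adjusted p = 0.000108). Hoxb9 fell by 0.36 ± 0.05 (limma adjusted p = 1.10e-05), and Hoxc4 by 0.22 ± 0.08 (limma adjusted p = 0.0234). Hoxd9 was at -0.13 and Hoxc4 at -0.01 with median-of-ratios scaling, and neither was then called. Hoxb13 and Hoxb5 were not called without scaling, at -0.17 ± 0.08 and 0.15 ± 0.08. Hoxb5 was called higher with median-of-ratios and upper-quartile scaling, and Hoxb13 lower with total FPKM scaling.

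Under THZ1 in null cells, neighbours along a cluster were called in opposite directions 4 times among the 25 pairs of adjacent tested genes. Of the 29 Hox genes 12 were called higher and 10 lower there, and of all tested genes 24.6% and 51.1%. Whether the count differs from that of unrelated genes was not tested. The 4 opposite pairs were Hoxa3 and Hoxa4, Hoxb3 and Hoxb4, Hoxc5 and Hoxc6, and Hoxd9 and Hoxd10. In each, the gene of lower number was lower under THZ1. Of these, Hoxa3 and Hoxd9 were not called with median-of-ratios scaling, and Hoxd10 was lost under 7 of the 15 alternatives, so that the pairs of Hoxb3 with Hoxb4 and of Hoxc5 with Hoxc6 held throughout. The annotated spans of Hoxa4, Hoxa5 and Hoxa6 lie inside that of Hoxa3, and that of Hoxb4 inside that of Hoxb3, although their coding transcripts share 0 bp of exon. How fragments in such nested genes were assigned, and whether strand was used, is not given in the sources used here, so values of nested genes and of antisense transcripts within the clusters cannot be told apart from the genes' own. Across the 29 genes the response had a Pearson's r of -0.20 with the log2 of the annotated span, a description over genes that share libraries and neighbours.

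**Figure D4:**
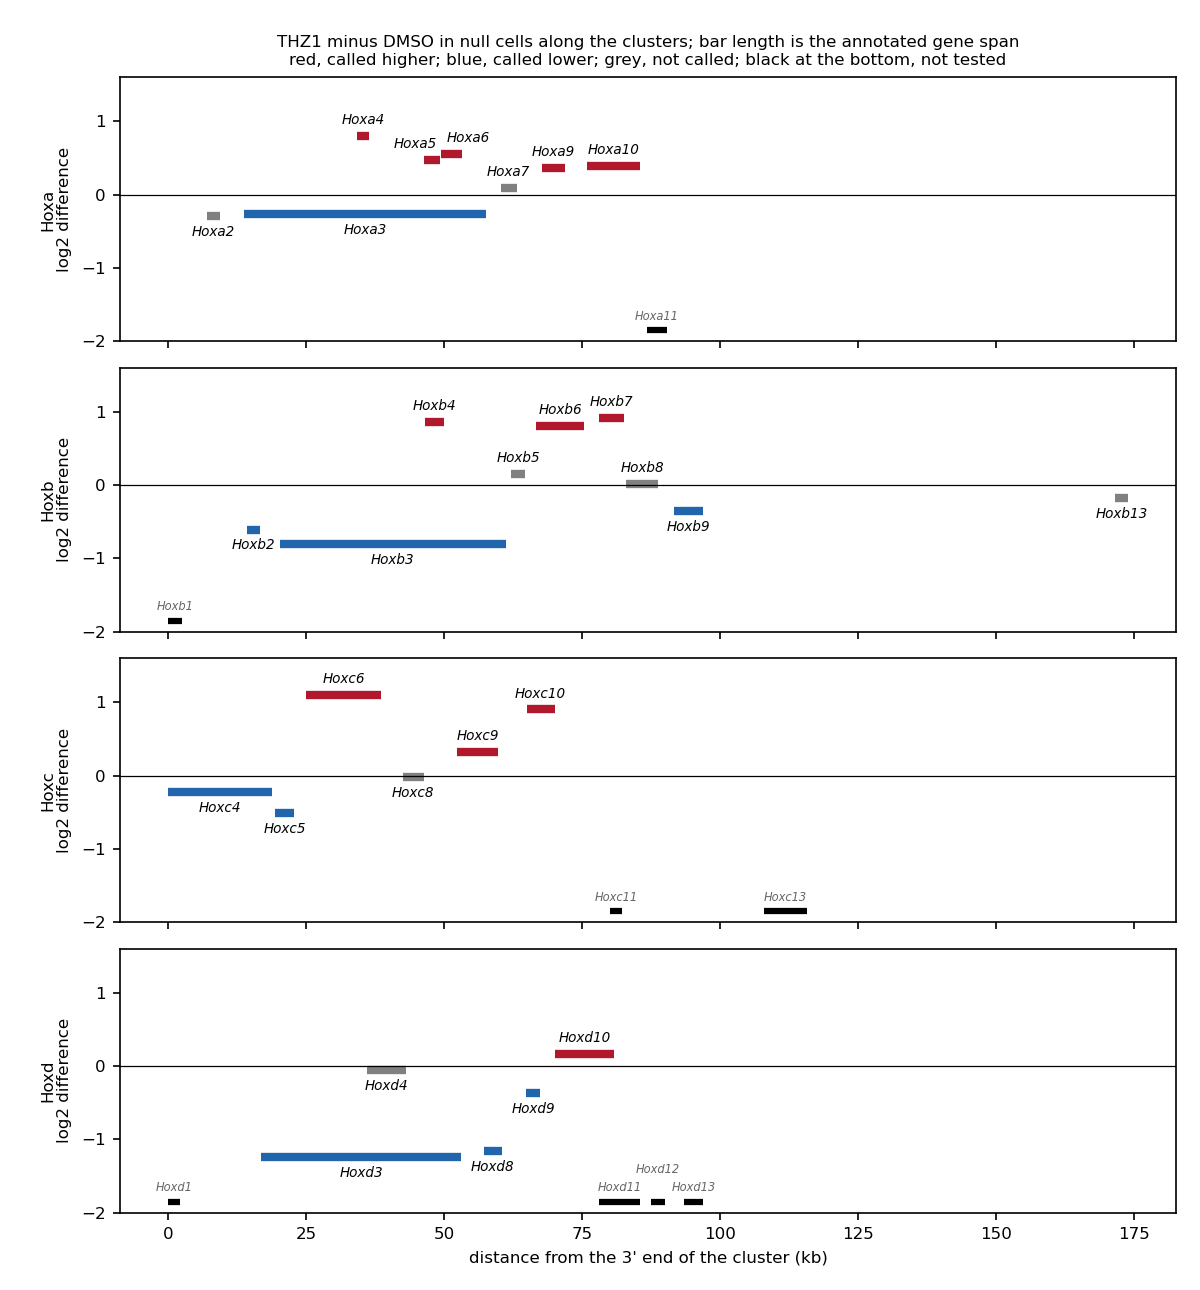
Log2 difference in FPKM + 1, THZ1 minus DMSO in null cells (vertical axis), for the Hox genes along each cluster, by distance from the 3' end of the cluster in kb (horizontal axis), with bar length equal to the annotated span. Red bars were called higher, blue lower, grey not called, and black bars at the bottom were not tested. The anterior genes at the left lie below 0 in the 3 clusters that have them, and the highest values are 0.80 in Hoxa (Hoxa4), 0.91 in Hoxb (Hoxb7) and 1.10 in Hoxc (Hoxc6).

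In heterozygous cells the THZ1 response was smaller and mostly upward. Of 29 Hox genes 12 (41.4%) were called, 10 higher and 2 lower, against 22.4% of all tested genes, of which 12.2% were called higher and 10.3% lower. The median was 0.11 over the Hox genes and 0.01 over all tested genes. Keeping genes of any level cut the count to 6. It was 7 without heterozygous DMSO replicate 1 and 7 without heterozygous THZ1 replicate 2.

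Hoxb13 rose most, by 0.55 ± 0.08 (SE, limma adjusted p = 0.00103), with both heterozygous THZ1 libraries above both DMSO ones, to 1.52 times the DMSO mean. Hoxc10 rose by 0.53 ± 0.05 (limma adjusted p = 8.58e-05), Hoxd10 by 0.43 ± 0.07 (adjusted p = 0.00172) and Hoxb7 by 0.42 ± 0.06 (adjusted p = 0.00135). Hoxd3 fell by 0.56 ± 0.10 (limma adjusted p = 0.00248). These 5 calls held under every alternative run. The other calls were rises of 0.20 to 0.34 in Hoxa5, Hoxa10, Hoxb4, Hoxb5, Hoxc4 and Hoxc6 and a fall of 0.22 in Hoxd8, and each was lost under at least 1 alternative. Of the 9 tested genes of groups 2, 3 and 9, Hoxd3 was the only one called in heterozygous cells. With total FPKM scaling Hoxb9 was called lower as well.

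There were 7 genes called higher under THZ1 in both lines, Hoxa5, Hoxa10, Hoxb4, Hoxb7, Hoxc6, Hoxc10 and Hoxd10. Hoxd3 and Hoxd8 were lower in both, and Hoxc4 was higher in heterozygous and lower in null cells. A further 12 genes were called in null cells alone, Hoxb5 and Hoxb13 in heterozygous cells alone, and 5 in neither. These counts are those without scaling. Under other scalings Hoxb5 was called higher and Hoxb13 lower in null cells as well. Across the 29 genes the responses of the lines had a Pearson's r of 0.62, given as a description.

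**Figure D5:**
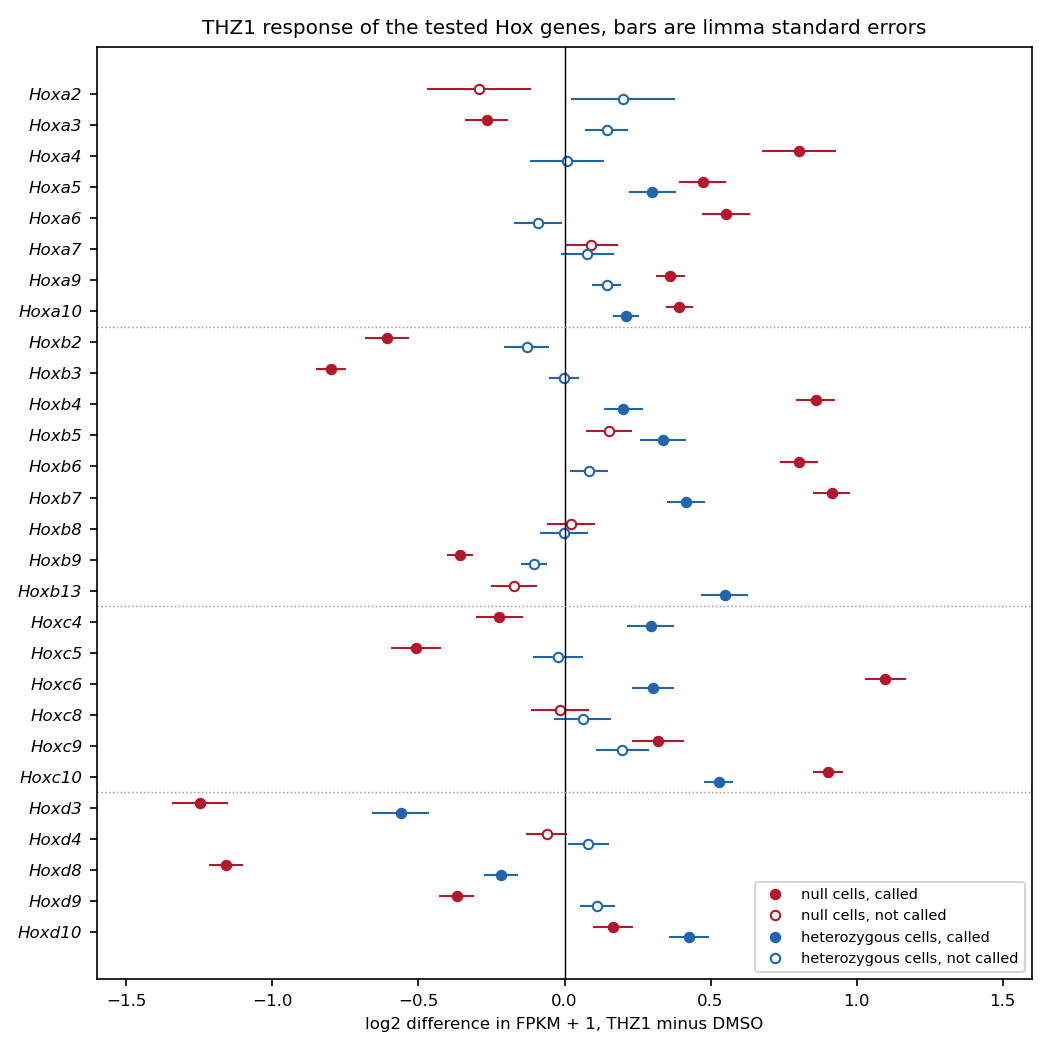
THZ1 response of 28 of the 29 tested Hox genes, as the log2 difference in FPKM + 1, THZ1 minus DMSO, in null cells (red, upper point of each pair) and heterozygous cells (blue). Points are limma estimates with bars of ± 1 SE, and filled points were called at an adjusted p below 0.05. The null response spans -1.25 to 1.10 and the heterozygous response -0.56 to 0.55.

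The difference between the 2 responses was tested directly as an interaction. It was called for 21 of 29 Hox genes (72.4%), 9 with a more positive and 12 with a more negative response in null cells, against 60.2% of all tested genes, 15.1% more positive and 45.1% more negative. Hoxd8 had the most negative value, -0.94 ± 0.08 (SE, limma adjusted p = 1.66e-06), followed by Hoxb3 with -0.80 ± 0.07 (adjusted p = 2.03e-06). Hoxc6 and Hoxa4 had the most positive, 0.79 ± 0.10 (limma adjusted p = 3.03e-05) and 0.79 ± 0.18 (adjusted p = 0.00218). For the genes of groups 2 and 3 it was called negative in 4 of 5, and Hoxa2, also negative, was not called. With median-of-ratios, upper-quartile and total FPKM scaling 2, 3 and 4 of these 5 were called negative. For the central genes it was called positive in 6 and negative in 3 of 15. The median of all tested genes was -0.19, and with median-of-ratios scaling, where it was 0.03, the Hox split was 11 more positive and 8 more negative.

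Under THZ1 the genes at the 3' end of the clusters were lower in null cells. All 5 tested genes of groups 2 and 3 were lower in null than in heterozygous cells, by 0.30 in Hoxd3 up to 0.95 in Hoxb3. Hoxd3 had been higher in null cells under DMSO, by 0.39, so its direction turned. Its call under THZ1 was lost with median-of-ratios scaling, at -0.10, and with upper-quartile scaling, at -0.09. In all, 24 of 29 Hox genes (82.8%) were called, 8 higher and 16 lower, against 83.2% of all tested genes, of which 25.1% were higher and 58.1% lower. Hoxb13 was lower by 2.59 ± 0.08 on the log2 scale (SE, limma adjusted p = 1.73e-11), a mean of 0.10 times that of heterozygous cells. Hoxd8, not called between the lines under DMSO without scaling, differed by -0.83 ± 0.06 under THZ1 (limma adjusted p = 2.22e-08). With median-of-ratios, upper-quartile and total FPKM scaling Hoxd8 was called higher in null cells under DMSO. Hoxb4, Hoxc6, Hoxa4 and Hoxb7 were higher in null cells, by 0.64, 0.57, 0.56 and 0.53. Hoxb6 and Hoxa6, lower in null cells under DMSO, were not called under THZ1 without scaling. With median-of-ratios and with upper-quartile scaling both were called higher in null cells under THZ1. The median of all tested genes was -0.28, and with median-of-ratios scaling, which brought it to -0.01, the Hox split was 11 higher and 10 lower. With upper-quartile scaling the split was 11 and 8. Hoxc4 was called lower at -0.24 ± 0.08 (limma adjusted p = 0.0137) but was at 0.03 under both of these scalings.

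Of the 29 tested genes, Hoxa7 and Hoxc8 were called in none of the 5 comparisons without scaling. With median-of-ratios scaling Hoxa7 was called higher under THZ1 in null cells. Hoxa7 had 6.4 and 7.39 FPKM in null THZ1, 6.9 and 5.92 in null DMSO, 7.18 and 8.0 in heterozygous THZ1 and 6.86 and 7.41 in heterozygous DMSO libraries. Hoxc8, which patterns the lower thorax, had 1.79 and 1.99 FPKM in null THZ1, 2.09 and 1.76 in null DMSO, 2.04 and 2.17 in heterozygous THZ1 and 2.17 and 1.79 in heterozygous DMSO libraries. Groups compared overlapped in both genes, other than null THZ1 and heterozygous THZ1 libraries in Hoxc8. Hoxa2 had 1.28 and 2.2 FPKM in null THZ1, 2.83 and 1.86 in null DMSO, 3.62 and 4.15 in heterozygous THZ1 and 2.63 and 3.97 in heterozygous DMSO libraries. It was called only for null against heterozygous cells under THZ1 (-0.85 ± 0.18 SE, limma adjusted p = 0.00064), and its SE there was the largest of the 29 genes.

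Genes that act with or on Hox genes were examined as lists chosen by name. The TALE proteins Pbx, Meis and Pknox bind DNA together with Hox proteins, and 7 of 9 TALE genes were tested. Under THZ1, 5 of the 7 were lower and 0 higher in null cells, against 51.1% and 24.6% of all tested genes. In heterozygous cells 1 was higher and 1 lower, against 12.2% and 10.3%. With median-of-ratios scaling the counts in null cells were 2 higher and 3 lower. Pbx2 had 5.1 and 4.84 FPKM in null THZ1 and 15.09 and 15.3 in null DMSO libraries, a log2 difference of -1.44 ± 0.07 (SE, limma adjusted p = 1.62e-09). Pbx4 differed by -0.85 ± 0.09 (limma adjusted p = 1.20e-06). Under DMSO 3 TALE genes were higher and 4 lower in null cells, against 29% and 41% of all tested genes. Meis3 was at -0.94 ± 0.07 and Meis2 at 0.71 ± 0.08 (limma adjusted p = 1.64e-07 and 3.02e-06). Meis1 and Pknox2 were at most 0.03 and 0.05 FPKM in any library.

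Polycomb proteins keep Hox genes silent outside their domain, and 18 of 24 Polycomb genes were lower and 3 higher in null than in heterozygous cells under DMSO, against 41% and 29% of all tested genes. The smallest adjusted p-values were those of Suz12 (-1.12 ± 0.06), Ezh2 (-0.60 ± 0.05), the methyltransferase of the complex, and Cbx2 (-0.90 ± 0.08), with limma adjusted p = 3.48e-09, 5.87e-07 and 6.74e-07. With upper-quartile scaling 13 Polycomb genes were lower and 4 higher under DMSO. Under THZ1 in null cells 5 were higher and 12 lower, shares near the 24.6% and 51.1% of all tested genes. The smallest adjusted p-values there were those of Cbx6 (-1.50 ± 0.04), Ring1 (-1.45 ± 0.09) and Pcgf6 (-0.95 ± 0.06), with limma adjusted p = 6.32e-11, 1.23e-08 and 3.04e-08. The split was 9 higher and 8 lower with median-of-ratios and 3 and 17 with total FPKM scaling. In heterozygous cells 2 of the 24 were higher and 2 lower under THZ1, against 12.2% and 10.3% of all tested genes. Of 16 Trithorax genes and H3K27 demethylases, which counter Polycomb, 3 were higher and 6 lower in null DMSO cells, against 29% and 41% of all tested genes. Under THZ1 in null cells 3 were higher and 5 lower, against 24.6% and 51.1%. The THZ1 split turned to 8 higher and 2 lower with median-of-ratios and 6 and 2 with upper-quartile scaling. Men1, which encodes menin, fell under THZ1 in null cells by 0.72 ± 0.07 (limma adjusted p = 7.56e-07), and Kdm6a and Kmt2c rose by 0.59 ± 0.06 and 0.69 ± 0.08 (limma adjusted p = 2.54e-06 and 6.95e-06).

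Retinoic acid activates Hox genes from the 3' end of a cluster in embryos, and 10 of 18 genes of its pathway were tested. Under DMSO 5 were higher and 3 lower in null cells, against 29% and 41% of all tested genes, and with upper-quartile scaling 5 were higher and 1 lower. Aldh1a2, which makes retinoic acid in the embryo, was at -1.35 ± 0.06 (SE, limma adjusted p = 6.39e-10), while its relative Aldh1a1 was at 0.68 ± 0.04 and the retinol dehydrogenase gene Rdh10 at 0.53 ± 0.04 (limma adjusted p = 7.66e-09 and 1.30e-07). Under THZ1 in null cells 2 were higher and 4 lower, against 24.6% and 51.1% of all tested genes, with the receptor genes Rxrb and Rarg at -1.09 ± 0.07 and -0.71 ± 0.07 and Aldh1a1 at 0.52 ± 0.04 (limma adjusted p = 2.36e-08, 8.05e-07 and 8.28e-08). The THZ1 split was 5 higher and 3 lower with median-of-ratios scaling. In heterozygous cells 1 of the 10 was higher and 1 lower under THZ1, against 12.2% and 10.3% of all tested genes.

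Of 12 partners and targets of Hox genes in the embryonic kidney, 5 were tested. All 5 were lower under THZ1 in null cells, among them Pax2, Emx2, Sall1 and Gdnf, whose product draws the ureteric bud into the kidney. Of all tested genes 51.1% were lower there. In heterozygous cells 0 of the 5 were called, here and under the 3 other scalings, where 22.4% of all tested genes were called without scaling. Pax2 had 23.86 FPKM in null THZ1, 44.98 in null DMSO, 74.48 in heterozygous THZ1 and 65.69 in heterozygous DMSO cells on average. In null cells THZ1 changed Pax2 by -0.89 ± 0.07 and Emx2 by -0.64 ± 0.06 (limma adjusted p = 2.32e-07 and 4.29e-07). Under DMSO Gdnf was higher in null cells by 1.57 ± 0.09 (limma adjusted p = 1.22e-08) and the other 4 were lower. Of all tested genes 29% were higher and 41% lower in that comparison. With upper-quartile scaling 1 was higher and 1 lower under DMSO, and 4 of the 5 were lower under THZ1 in null cells with that and with median-of-ratios scaling. Of 8 markers of the head and forebrain, which lies ahead of the Hox domain, 1 was tested, Otx1, which was lower in null DMSO cells by 1.18 ± 0.12 (limma adjusted p = 1.84e-06). Of 11 other homeobox genes next to or related to the clusters 9 were in the files and 0 passed the filter, and 15 noncoding transcripts of the clusters were not analysed here.

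Genes beside the clusters, within 500 kb, were counted in the same way. Under THZ1 in null cells all 3 tested neighbours of Hoxa and both tested neighbours of Hoxd were higher, although Hoxd3, Hoxd8 and Hoxd9 were lower. Lnpk and Mtx2, the neighbours of Hoxd, were at 0.31 ± 0.07 and 0.22 ± 0.05 (SE, limma adjusted p = 0.00193 and 0.00106). Of 11 neighbours of Hoxb 2 were higher and 5 lower, and of 15 neighbours of Hoxc 3 were higher and 9 lower, shares near those of all tested genes, 24.6% higher and 51.1% lower. Other scalings were not run for these neighbours. Under DMSO 1 of the 11 neighbours of Hoxb was higher and 7 were lower in null cells, and for Hoxc the counts were 4 and 9 of 15, against 29% and 41% of all tested genes.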

How the data were processed

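Oligo dT was used to select poly(A) RNA from TRIzol extracts, per the labels' protocols. Per the submitters' processing notes, Bowtie2, DESeq2 and the build mm10 were used. The counter, the annotation and any use of strand are not given in these sources. The authors deposited 1 FPKM value per gene and library, to 2 decimals. RefSeq's GRCm38.p6 table gave symbols (18592 of 18631 IDs) and coordinates, and GENCODE M21 gave strand and exons.

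Genes with a mean of at least 1 FPKM were kept (10731). limma 3.58.1 in R 4.3.3 was fitted with a mean-variance trend to log2(FPKM + 1) of all 8 libraries, 1 mean per group, with 4 residual degrees of freedom. Tests are two-sided, with Benjamini-Hochberg adjustment over the genes kept. The 15 alternatives were 3 scalings, a pseudocount of 0.1, 2 filters, a replicate block and leaving out each library. The files give no counts, so depth is an estimate, and precision is that of 2 libraries per group.

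The members, lists and tests were chosen with earlier results of these data known. Named genes are Hox genes with a mean of at least 1 FPKM in a group, and from each list up to 3 called genes with the smallest adjusted p-values in a comparison. Lower Hox genes are given by level alone. Some genes that this rule names are not reported here.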

Additional observations from a re-analysis of the deposited data

Results flagged for a closer look

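For 21 Hox genes the THZ1 response differed between null and heterozygous cells by a direct test of that difference (interaction term, limma, adjusted p below 0.05). The values are log2 differences, the response in null minus that in heterozygous cells. The 20 values given here follow. Among the anterior genes they were -0.41 for Hoxa3, -0.48 for Hoxb2, -0.80 for Hoxb3 and -0.69 for Hoxd3. Among the central genes they were 0.79 for Hoxa4, 0.64 for Hoxa6, 0.66 for Hoxb4, 0.72 for Hoxb6, 0.50 for Hoxb7 and 0.79 for Hoxc6, against -0.52 for Hoxc4, -0.49 for Hoxc5 and -0.94 for Hoxd8. Among the posterior genes they were 0.18 for Hoxa10, 0.22 for Hoxa9 and 0.37 for Hoxc10, against -0.72 for Hoxb13, -0.25 for Hoxb9, -0.26 for Hoxd10 and -0.48 for Hoxd9. The calls of Hoxa3, Hoxa9, Hoxa10, Hoxb2, Hoxb9 and Hoxd10 were each lost under at least 1 alternative. Hoxb13 stands apart, since its response was a rise in heterozygous cells and no call in null cells, where its level was near 1 FPKM. With total FPKM scaling it was called lower under THZ1 in null cells. Groups of 2 libraries are too small for a test of single outlying libraries.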

How the results depend on the processing

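Over the 15 alternatives 10 of 18 Hox calls held throughout for null against heterozygous cells under DMSO, 5 of 12 for THZ1 in heterozygous cells, 17 of 22 for THZ1 in null cells, 15 of 21 for the difference between the responses and 15 of 24 for null against heterozygous cells under THZ1. Leaving out 1 library gave 11 to 19 calls for null against heterozygous cells under DMSO (18 with all), with 11 without null DMSO replicate 2. It gave 7 to 11 for THZ1 in heterozygous cells (12 with all), with 7 without heterozygous DMSO replicate 1 and 7 without heterozygous THZ1 replicate 2, and with no filter on low values the count was 6. Without the filter more genes were tested.

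Hoxc4, null against heterozygous cells under THZ1, turned to 0.026 with median-of-ratios and 0.034 with upper-quartile scaling. Hoxd4, uncalled for THZ1 in null cells at -0.06, turned to 0.17 with median-of-ratios scaling (limma adjusted p = 0.0332), 0.061 with upper-quartile scaling, and -0.14 to 0.014 when 1 library was left out, with 0.014 without null DMSO replicate 1. The cause was not tested.

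Replicate numbers are not said to pair libraries, and replicate differences correlated by -0.09 to 0.14 between groups. With the replicate block the counts were 18, 11, 22, 21 and 24, and the call lost was Hoxb4 for THZ1 in heterozygous cells (limma adjusted p = 0.0508). Over all genes, THZ1 in heterozygous cells gave 2406 calls, and 1308 with upper-quartile scaling, 1309 with no filter, 1153 without heterozygous DMSO replicate 1, 797 and 1048 without heterozygous THZ1 replicate 1 and 2. Low genes such as Hoxd3, whose lowest value of 1.45 FPKM is about 11 to 77 fragments by transcript length, carry the most counting error.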
